A study of Mus musculus with 6 samples.

Results

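Glucose synthesis and ammonia production in the proximal tubule were followed through 7 genes chosen by symbol, Pck1, Pck2, G6pc, Fbp1, Pcx, Glud1 and Slc38a3. All 7 were found among the 32544 genes of the deposited table, and all 7 passed the filter on low values. The libraries measured polyadenylated RNA of proximal tubules, S2 and S3 segments in 1 preparation, dissected by hand from kidneys of C57Bl/6 mice that the design text calls control mice. Tubules had been collected 24 h after 1 injection of aristolochic acid I, a plant nephrotoxin that forms adducts on DNA, stated as 3 mg/kg (AA, 3 libraries), or of its solvent dimethyl sulfoxide (DMSO, 3 libraries). The labels give neither age nor sex, and name no animal for a library, so p-values measure only the spread between these libraries. Several tubules of a kidney had been pooled, and in such bulk samples fewer cells of a type and less RNA per cell cannot be told apart.

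The proximal tubule is the part of the kidney that makes glucose, from lactate, glycerol, fructose and the carbon of glutamine. Glutamine enters the cell across its basolateral side and is stripped of its nitrogen in the mitochondrion, which yields ammonium for the excretion of acid and α-ketoglutarate for glucose synthesis. The carbon then passes oxaloacetate and phosphoenolpyruvate, climbs the reversible steps of glycolysis, and leaves as glucose. In metabolic acidosis the genes of this route, Pck1 and Slc38a3 among them, are known to be induced in rodent kidneys.

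Pck1 and Pck2 encode the cytosolic and the mitochondrial form of phosphoenolpyruvate carboxykinase, which turns oxaloacetate into phosphoenolpyruvate. Their upstream sequences are shown because the 2 genes of this single step lay far apart in level and, of the pair, Pck1 was called and Pck2 was not. Both are from RefSeq on build GRCm38.p6, plus strand, 5′ to 3′, and end before the first base that RefSeq or GENCODE M21 gives as transcribed. Capitals mark an exact match to TTACGTCA, a variant of the cAMP response element.
Pck1, chr2:173152823-173153047: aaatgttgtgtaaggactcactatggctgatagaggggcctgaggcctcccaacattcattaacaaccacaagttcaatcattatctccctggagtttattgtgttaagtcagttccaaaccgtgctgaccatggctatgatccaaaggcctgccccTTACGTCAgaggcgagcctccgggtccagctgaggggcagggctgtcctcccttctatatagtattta
Pck2, chr14:55540016-55540265: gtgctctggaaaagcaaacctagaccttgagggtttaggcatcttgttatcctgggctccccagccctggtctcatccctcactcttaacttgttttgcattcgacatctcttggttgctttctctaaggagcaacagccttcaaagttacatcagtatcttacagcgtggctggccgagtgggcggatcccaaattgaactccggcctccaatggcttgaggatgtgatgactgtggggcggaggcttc

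The match in Pck1 ran from position -93 to -86 relative to the RefSeq start, and overlapped a match to TGACG, the core of the element, on the minus strand. In the rat, the element at this place of the gene is known to bind the cAMP-responsive factor CREB. Windows of 250 bases before the start were held for 6 of the 7 genes, all but Slc38a3. TTACGTCA or its reverse complement stood in 0.447% of all 32851 such windows, and TGACG in 17.8%. The only other match in the windows of the 6 genes was TATAAA, the core of many basal promoters, from -29 to -24 of G6pc, found in 12.4% of all windows. No window of the 6 genes held TGACGTCA (1.55% of all windows), TGTTTAC of forkhead factors (3.17%), CAAAGTCCA of HNF4 (0.384%), the longer palindrome of HNF1 (0.00913%) or TGATGCAAT of ATF4 (0.167%), searched on both strands.

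Read totals ran from 13304877 to 17815915 in the AA libraries and from 15958557 to 31136251 in the DMSO libraries. The 7 genes had between 209 reads, for Pck2 in AA replicate 1, and 171489 reads, for Pck1 in DMSO replicate 2. Of 14311 tested genes, 30.9% had a limma p below 0.05 after Benjamini-Hochberg adjustment, 22.3% as higher and 8.66% as lower in AA. Over the tested genes the log2 fold change had a median of 0.21, or -0.05 with library medians equalised. Higher calls made up 72.0% of all calls on the deposited scale, 39.9% with library medians equalised, 46.7% after quantile normalization and 48.3% with TMM factors, so small differences below depend on the scaling. Markers of the S3 segment summed to 5253 to 6969 CPM (reads of the gene per 1000000 reads of the library) in AA against 10981 to 14590 CPM in DMSO. Of these 11 markers, 2 were called higher and 5 lower. The 13 markers of the whole proximal tubule summed to 33951 to 46681 CPM in AA and 40897 to 55809 CPM in DMSO, with 1 called higher and 5 lower. The 9 leukocyte markers, of which 7 were tested and 4 called higher, summed to 55.2 to 70.5 CPM in AA and 16.5 to 22.0 CPM in DMSO. The 7 markers of fibroblasts and pericytes, 3 of them called higher, summed to 171 to 198 CPM in AA and 89.6 to 134 CPM in DMSO. Of the 6 markers of the thin limb 4 were called higher, with sums of 1849 to 2292 CPM in AA and 1674 to 1834 CPM in DMSO. Their median log2 fold change was 1.27. Most of each sum was Aqp1, which is also among the proximal tubule markers and was not called. It had 1653, 1144 and 1319 CPM in AA replicates 1 to 3 and 1599, 1609 and 1477 CPM in the DMSO libraries. The sums therefore understate the difference in the rest of the list. Of the 7 endothelial markers 2 were called higher (303 to 344 CPM in AA and 200 to 305 CPM in DMSO), and of the 8 markers of collecting duct principal cells 3 were called higher and 1 lower (70.7 to 115 CPM in AA and 86.2 to 187 CPM in DMSO). Mitochondrial genes took 8.72%, 5.602% and 4.82% of reads in AA replicates 1, 2 and 3, and 8.65%, 4.005% and 10.1% in DMSO replicates 1, 2 and 3. No marker of these lists was at 0 in all libraries. The part of these levels and shares in the results below was not tested.

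Pck1 and G6pc, the genes of the phosphoenolpyruvate step and of the release of glucose, fell in AA tubules. Their means were 2.99-fold and 3.07-fold lower than in DMSO tubules. Pcx fell by 0.47 on the log2 scale, a call lost under 10 of 18 other choices of processing or of libraries. Against DMSO replicate 3 alone the log2 fold changes were -0.98 for Pck1, -0.42 for G6pc and -0.29 for Pcx. Fbp1 was lower and Glud1 higher in every AA library, but neither passed the test. Pck2 and Slc38a3 overlapped between the groups. In all, 0 of the 7 genes were called higher and 3 lower, against 22.3% and 8.66% of all tested genes. The AA values lay below every DMSO value for 4 genes (as for 13% of all tested genes) and above for 1 gene (33.4%), beside 46.4% for either direction. The median log2 fold change of the 7 was -0.34, beside 0.21 for all tested genes.

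**Figure D1:**
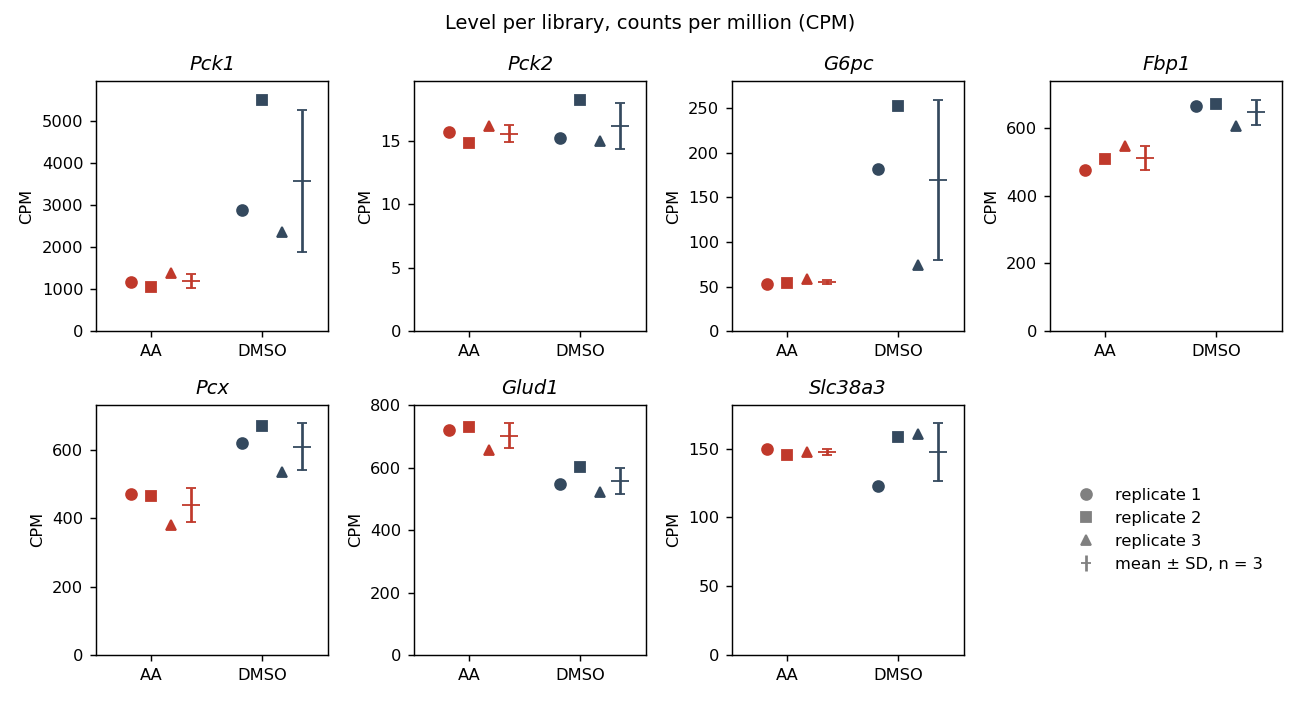
Level of each gene in CPM (y axis, from 0) in the 3 AA and 3 DMSO libraries; symbols mark the replicate number and bars the mean ± SD. The AA libraries sit below every DMSO library for Pck1, G6pc, Fbp1 and Pcx, above them for Glud1, and among them for Pck2 and Slc38a3.

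Pck1 is often regarded as the gatekeeper of glucose synthesis. It had 1175, 1049 and 1375 CPM in AA replicates 1, 2 and 3, against 2881, 5508 and 2357 CPM in the 3 DMSO libraries in the same order. The groups did not overlap, DMSO replicate 2 stood far above the other DMSO libraries, and the AA libraries lay close together. The means were 1200 ± 164 CPM in AA and 3582 ± 1688 CPM in DMSO (SD, n = 3 each). The log2 fold change on the log2(CPM + 1) scale was -1.49 (SE 0.29, 95% interval -2.12 to -0.86, limma adjusted p = 0.0034). It ranked 120 from the lowest among 14311 genes. Without DMSO replicate 2 the log2 fold change was -1.13 (adjusted p = 0.00457), and set against DMSO replicate 3 with a term that keeps DMSO replicates 1 and 2 apart (called the library-set term below) it was -0.98 and did not pass (adjusted p = 0.0846). No label sets those 2 libraries, the deepest of the 6, apart, and the term leaves 1 DMSO library, which is assumed to vary like the others. Pck1 occupies chromosome 2 between 173153048 and 173159273, plus strand (GENCODE M21, GRCm38).

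Pck2 makes phosphoenolpyruvate inside the mitochondrion. It had 15.7, 14.8 and 16.2 CPM in AA and 15.2, 18.2 and 15.0 CPM in DMSO, replicates 1 to 3 in each. The groups overlapped, with DMSO replicate 2 the highest library. The log2 fold change was -0.05 (SE 0.18, 95% interval -0.44 to 0.35, adjusted p = 0.869), so that a fall as large as that of Pck1 lay outside the interval. The ratio of Pck1 to Pck2, per kilobase of transcript, was 130.04, 123 and 148 in the AA libraries and 329, 525 and 274 in the DMSO libraries. The size of this ratio rests on the transcripts chosen, of 2661 bases for Pck1 and 4625 for Pck2. An exact two-sided permutation test of this ratio gave p = 0.1, the smallest value that 3 against 3 libraries allow (0.112 adjusted over the 9 ratios and sums compared). Both forms were carried by the tubules, but Pck2 was a minor part of the phosphoenolpyruvate carboxykinase RNA in all 6 libraries. Pck2 occupies chromosome 14 between 55540266 and 55551242, plus strand.

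G6pc encodes the catalytic subunit of glucose-6-phosphatase, which releases free glucose from glucose 6-phosphate in the endoplasmic reticulum. It had 53.5, 54.2 and 58.2 CPM in AA against 182, 253 and 74.4 CPM in DMSO. All AA libraries lay below all DMSO libraries, and DMSO replicate 3 stood nearer to the AA libraries than to the other DMSO libraries. The share of mitochondrial reads was highest in DMSO replicate 3 and lowest in DMSO replicate 2, where G6pc and Pck1 were highest, and its part was not tested. The means were 55.3 ± 2.52 CPM in AA and 170 ± 89.9 CPM in DMSO (n = 3 each). The log2 fold change was -1.43 (SE 0.34, 95% interval -2.17 to -0.70, adjusted p = 0.00921), and it ranked 135 from the lowest of 14311 genes. Against DMSO replicate 3 in the test with the library-set term it was -0.42 (adjusted p = 0.238), without DMSO replicate 3 it was -1.94 (adjusted p = 1.46e-05), and with a variance estimate robust to outlying genes the adjusted p was 0.0765. G6pc occupies chromosome 11 between 101367561 and 101377903, plus strand.

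The other parts of the glucose-6-phosphatase system did not pass. G6pc3, the widely expressed catalytic subunit, had 33.0 ± 1.41 CPM in AA and 35.9 ± 5.02 CPM in DMSO (log2 fold change -0.11, SE 0.16, adjusted p = 0.613). Slc37a4, the carrier that brings glucose 6-phosphate to the enzyme, had 110 ± 21.7 CPM in AA and 153 ± 50.6 CPM in DMSO (log2 fold change -0.44, SE 0.22, adjusted p = 0.155), and passed with library medians equalised (-0.70, adjusted p = 0.0407). Per kilobase, the ratio of G6pc to G6pc3 was 1.07, 1.11 and 1.10 in the AA libraries and 3.40, 3.99 and 1.54 in the DMSO libraries. The 2 catalytic subunits thus stood at near equal levels per kilobase in every AA library. That rests on the transcripts chosen, of 2414 bases for G6pc and 1573 for G6pc3, as their AA means were 55.3 and 33.0 CPM. The difference in ratio between the groups had an exact two-sided permutation p of 0.1, the smallest possible.

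Fbp1 encodes fructose-1,6-bisphosphatase, which removes a phosphate against the direction of glycolysis. It had 475, 509 and 547 CPM in AA against 665, 671 and 604 CPM in DMSO. The groups did not overlap and both were tight. The means were 510 ± 35.9 CPM in AA and 647 ± 36.8 CPM in DMSO (n = 3 each), with a log2 fold change of -0.34 (SE 0.14, 95% interval -0.64 to -0.04) that did not pass (adjusted p = 0.0798). It passed as lower with library medians equalised (-0.60, adjusted p = 0.0133, where 16.9% of all tested genes were called lower) and with TMM factors (-0.55, adjusted p = 0.0165). Fbp2, the muscle form of the enzyme, had 15.5 ± 2.12 CPM in AA and 9.29 ± 2.194 CPM in DMSO and was called higher (log2 fold change 0.70, SE 0.22, adjusted p = 0.0351). That call was lost under each of the 3 other scalings (adjusted p = 0.101 to 0.171) and without AA replicate 2, AA replicate 3, DMSO replicate 1 or DMSO replicate 2 (highest adjusted p 0.129). Fbp1 occupies chromosome 13 between 62864753 and 62888282, minus strand.

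Pcx encodes pyruvate carboxylase, which feeds lactate and pyruvate carbon into oxaloacetate in the mitochondrion. It had 470, 465 and 380 CPM in AA against 621, 670 and 535 CPM in DMSO. The groups did not overlap, and replicate 3 was the lowest library of each. The means were 438 ± 50.9 CPM in AA and 609 ± 68.8 CPM in DMSO (n = 3 each), which gave a log2 fold change of -0.47 (SE 0.15, 95% interval -0.81 to -0.14, adjusted p = 0.0364). The call was lost without AA replicate 1, AA replicate 2, AA replicate 3, DMSO replicate 1 or DMSO replicate 2 (adjusted p = 0.0543 to 0.147) and under the library-set term (-0.29, adjusted p = 0.406). Pcx, on the plus strand of chromosome 19 from 4510472 to 4621752, overlaps Lrfn4 on the other strand. Lrfn4 had 3.91 to 5.53 CPM in AA and 5.11 to 16.9 CPM in DMSO, and how the counting treated strand is not given in the sources used here.

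**Figure D2:**
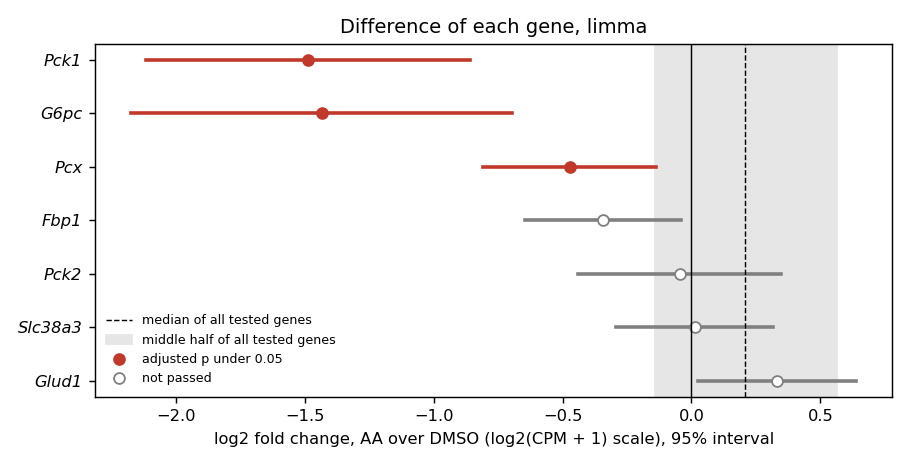
Log2 fold change of AA over DMSO (x axis) with its 95% interval for each gene, from limma; filled red points passed at an adjusted p of 0.05 and open grey points did not. The dashed line is the median of all tested genes (0.21) and the grey band spans their quartiles (-0.14 to 0.56): Pck1 and G6pc lie far below the band.

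On the ammonia side, Glud1 encodes glutamate dehydrogenase, which frees ammonium from glutamate and leaves α-ketoglutarate. It had 719, 731 and 656 CPM in AA against 547, 602 and 523 CPM in DMSO. All AA libraries lay above all DMSO libraries, as they did for 33.4% of tested genes. The means were 702 ± 40.4 CPM in AA and 558 ± 40.6 CPM in DMSO (n = 3 each), which gave a log2 fold change of 0.33 (SE 0.14, 95% interval 0.03 to 0.64) that did not pass (adjusted p = 0.0915). With library medians equalised it was 0.07 (adjusted p = 0.752), and after quantile normalization it passed as higher (0.45, adjusted p = 0.0321). Glud1 occupies chromosome 14 between 34310727 and 34345265, plus strand.

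Slc38a3 encodes SNAT3, the basolateral glutamine carrier of the later proximal tubule. It had 150, 145 and 148 CPM in AA and 123, 159 and 160 CPM in DMSO. The 3 AA libraries lay inside the range of the DMSO libraries, of which DMSO replicate 1 was the lowest. The means were 148 ± 2.18 CPM in AA and 147 ± 21.1 CPM in DMSO (n = 3 each), with a log2 fold change of 0.01 (SE 0.14, 95% interval -0.29 to 0.32, adjusted p = 0.957). A fall or a rise by more than about these bounds lay outside the interval. The sign turned to minus under other scalings, for example -0.25 with library medians equalised (adjusted p = 0.184). Slc38a3 occupies chromosome 9 between 107650634 and 107669530, minus strand.

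The order of the genes by level was compared per kilobase of the longest transcript that GENCODE marks as principal, so that it rests on that choice of transcript. In AA the order was Pck1 (451 ± 61.8 CPM per kilobase), Fbp1 (345 ± 24.3), Glud1 (207 ± 11.9), Pcx (108 ± 12.5), Slc38a3 (46.9 ± 0.691), G6pc (22.9 ± 1.04) and Pck2 (3.36 ± 0.147), and no 2 neighbours overlapped. In DMSO the order was Pck1 (1346 ± 634 CPM per kilobase), Fbp1 (437 ± 24.9), Glud1 (164 ± 11.98), Pcx (150 ± 16.9), G6pc (70.4 ± 37.3), Slc38a3 (46.8 ± 6.68) and Pck2 (3.49 ± 0.393). There Glud1 overlapped Pcx, and G6pc overlapped Slc38a3. G6pc and Slc38a3 therefore changed places, with G6pc below Slc38a3 in every AA library and, of the DMSO libraries, in replicate 3.

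The weight of Pck1 among the 7 genes was lower in every AA library. Pck1 made up 38.4%, 35.3% and 43.2% of the summed CPM of the 7 genes in the AA libraries, against 57.2%, 69.9% and 55.2% in the DMSO libraries. The sum itself was 3058, 2968 and 3179 CPM in AA against 5035, 7881 and 4269 CPM in DMSO. The ratio of Fbp1 to Pck1, per kilobase, was 0.727, 0.874 and 0.715 in AA against 0.415, 0.219 and 0.461 in DMSO. None of these 3 quantities overlapped between the groups, and each had the smallest exact two-sided permutation p of 0.1. All 3 contain Pck1, so they restate its difference and add no separate result on the 7 genes.

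For each gene the nearest profile over the 6 libraries was sought among 5686 genes (5687 for Pck2) whose log2 values average 5 or more, as the root mean square difference of log2(CPM + 1) after subtracting each gene's own mean. Pck1 lay nearest to Nat8f1, an acetyltransferase of a family of similar copies, at a distance of 0.20, and to Nudt19, a peroxisomal enzyme that cleaves coenzyme A, at 0.21. G6pc lay nearest to Ahcy, which splits S-adenosylhomocysteine, at 0.27, and to Nat8f1 at 0.28. Ahcy had 220, 174 and 210 CPM in AA against 512, 564 and 249 CPM in DMSO, with DMSO replicate 3 again the DMSO library nearest to AA. The nearest genes of Fbp1 were Ano6 and Ptdss1 (0.04 each), of Pcx Mrpl12 and Atp6v0a4 (0.06 each) and of Glud1 Tgfbrap1 (0.04). Pck2 lay nearest to Lrrc8d (0.02) and Prdx5 (0.03), and Slc38a3 to Dnmt1 and Lsm4 (0.02 each).

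Of 30 other genes of glucose synthesis and its entry routes, 5 passed as higher, 4 as lower and 21 not at all. Their median log2 fold change was 0.09, beside the 0.21 over all genes. The counts of this list and of those below stand beside 22.3% of all tested genes called higher and 8.66% called lower. Slc25a10, the mitochondrial dicarboxylate carrier, had 170 ± 10.4 CPM in AA and 346 ± 80.5 CPM in DMSO (log2 fold change -0.999, SE 0.17, adjusted p = 0.00164). Gk, which phosphorylates glycerol, had 676 ± 25.8 CPM in AA and 1216 ± 130 CPM in DMSO (-0.84, SE 0.15, adjusted p = 0.00247). Khk, which phosphorylates fructose, and Gpd1, which oxidises glycerol 3-phosphate, were lower by log2 fold changes of -0.69 (SE 0.16) and -0.62 (SE 0.15). Each of these 4 calls held whichever library was left out and under each of the 3 other scalings, and none passed once the library-set term was added. Against that single DMSO library the log2 fold changes of Slc25a10, Gk, Khk and Gpd1 kept their sign, at -0.70, -0.68, -0.52 and -0.38 (adjusted p = 0.0542, 0.065, 0.149 and 0.257).

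Slc16a1, the lactate and pyruvate carrier MCT1, was higher, at 14.8 ± 2.67 CPM in AA against 3.99 ± 2.03 CPM in DMSO (log2 fold change 1.73, SE 0.30, adjusted p = 0.00188). Got2, the mitochondrial aspartate aminotransferase, had 359 ± 33.5 CPM in AA and 250 ± 34.6 CPM in DMSO (0.53, SE 0.15, adjusted p = 0.0201), a call lost with library medians equalised (0.27, adjusted p = 0.202), with TMM factors (0.32, adjusted p = 0.124) and without AA replicate 2, AA replicate 3 or DMSO replicate 3 (highest adjusted p 0.0854). Got1, Gpt and Mdh1, enzymes that move carbon and nitrogen between the compartments, did not pass (0.47, 0.59 and -0.06). The counts moved with the libraries: 1 gene was higher without AA replicate 2 or without AA replicate 3, 2 were higher without DMSO replicate 3 and 3 were higher without DMSO replicate 1. With library medians equalised 1 was higher and 8 were lower, and with the library-set term 3 were higher and 0 lower.

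Of 25 other genes of glutamine handling, ammonia production and the carbon route from α-ketoglutarate, 3 passed as higher, 3 as lower and 19 not at all, and their median was 0.10. Gls2, a glutaminase best known from liver, was called higher but was barely read, at 1.89 ± 0.672 CPM in AA and 0.443 ± 0.0634 CPM in DMSO (0.98, adjusted p = 0.0227), and its call was lost in 5 of the 6 fits without 1 library, all but that without AA replicate 1 (highest adjusted p 0.0762), and with library medians equalised (adjusted p = 0.074) or quantile normalization (0.0928). Glul, glutamine synthetase, which uses ammonium up, fell, with 669, 515 and 573 CPM in AA against 1110, 1722 and 1027 CPM in DMSO (-1.10, SE 0.21, adjusted p = 0.00299).

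Slc25a22, a mitochondrial glutamate carrier, was higher, at 35.5 ± 0.657 CPM in AA and 19.1 ± 3.22 CPM in DMSO (log2 fold change 0.88, SE 0.17, adjusted p = 0.00358). Slc25a13, which exchanges aspartate for glutamate across the inner mitochondrial membrane, was lower, at 71.5 ± 11.1 CPM in AA and 138 ± 19.3 CPM in DMSO (-0.95, SE 0.16, adjusted p = 0.00167). Slc3a2, the common heavy chain of several amino acid exchangers, had 207 ± 19.7 CPM in AA and 48.1 ± 7.43 CPM in DMSO (2.09, SE 0.15, adjusted p = 8.7e-06), while Slc7a7, a light chain that pairs with it, stood at -0.67 (adjusted p = 0.0441), a call that passed in 1 of the 6 fits without 1 library, that without DMSO replicate 2. With library medians equalised 2 genes of the list were higher and 6 lower, and with the library-set term 2 were higher and 0 lower.

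**Figure D3:**
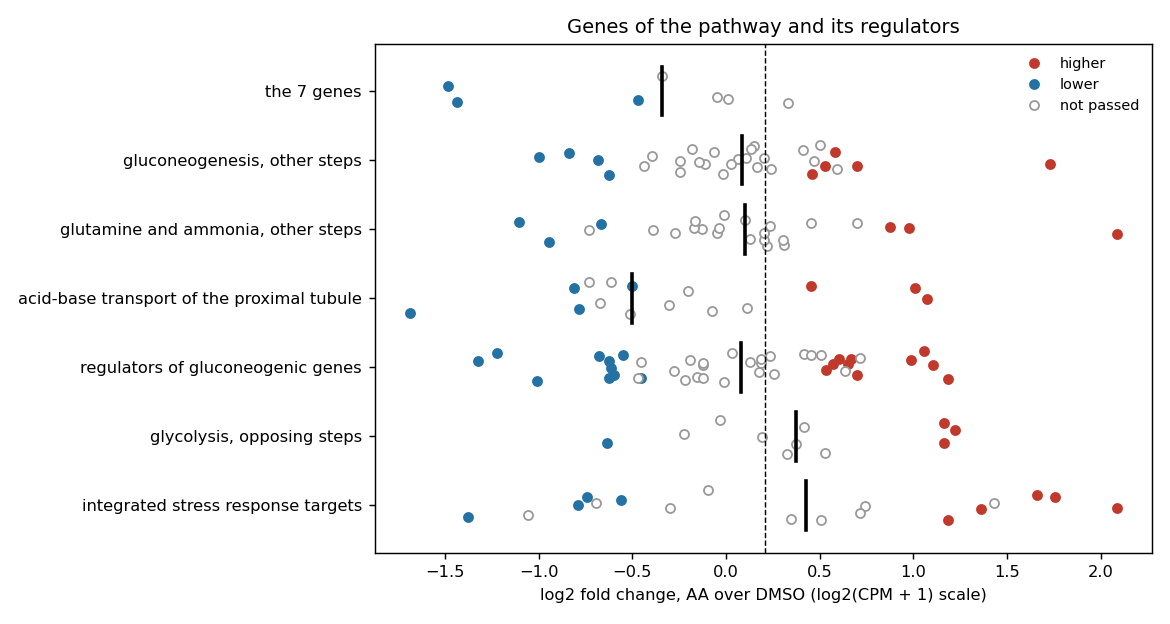
Log2 fold change of AA over DMSO (x axis) of every tested gene of the 7 and of each list of pathway genes and regulators; red points were called higher, blue lower and open points did not pass. Black bars are list medians and the dashed line is the median of all tested genes (0.21); each of the 6 lists below the 7 genes holds calls in both directions.

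The list for acid and bicarbonate handling in the proximal tubule held 15 genes, among them a receptor (Gpr4) and a kinase (Ptk2b), not only carriers. It also held the phosphate carrier Slc34a1 and the water channel Aqp1, which do not carry acid or bicarbonate. Both are among the proximal tubule markers and neither was called (log2 fold change -0.62 and -0.20), so the list is not separate from those markers. Of the 15, 3 passed as higher, 4 as lower and 8 not at all, and their median was -0.50. Slc4a4, the basolateral sodium bicarbonate cotransporter, had 448 ± 18.05 CPM in AA and 799 ± 163 CPM in DMSO (log2 fold change -0.81, SE 0.17, adjusted p = 0.00473), which was -0.53 with the library-set term (adjusted p = 0.135). Gpr4, a receptor that senses protons, was higher at a low level (7.31 ± 0.329 CPM in AA and 3.02 ± 0.861 CPM in DMSO; 1.07, SE 0.25). The other calls by the naming rule were Slc13a2 (-1.69), a citrate carrier, Atp6v0a4 (-0.50), a proton pump subunit, Ptk2b (0.46), a kinase, and Car2 (1.01), a carbonic anhydrase. The call of Atp6v0a4 was lost without AA replicate 3, DMSO replicate 1 or DMSO replicate 2 (highest adjusted p 0.0802), that of Ptk2b without AA replicate 2, AA replicate 3 or DMSO replicate 1 (0.069), and that of Car2 without AA replicate 2, DMSO replicate 1 or DMSO replicate 2 (0.0675). Those of Ptk2b and Car2 were also lost with library medians equalised (adjusted p = 0.256 and 0.0619), and that of Ptk2b with TMM factors (0.144). The 7 markers of intercalated cells, which also carry Car2 and Atp6v0a4, summed to 20.7 to 51.9 CPM in AA and 12.9 to 16.3 CPM in DMSO, with 3 called higher, and their part was not tested. Without DMSO replicate 3, 3 genes of the list were higher and 8 lower, without AA replicate 2 or without DMSO replicate 1, 1 was higher, and without AA replicate 3, DMSO replicate 1 or DMSO replicate 2, 2 were lower. With library medians equalised 1 was higher and 7 were lower, and with the library-set term 0 were higher and 1 was lower, at a median of 0.018.

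Of 42 tested regulators of the gluconeogenic genes, 10 passed as higher, 10 as lower and 22 not at all, and their median was 0.08. Of all tested genes, 22.3% were called higher and 8.66% lower. Klf15, a transcription factor that promotes amino acid use for glucose synthesis in mouse liver, fell, with 63.1, 55.6 and 56.2 CPM in AA against 129, 131 and 97.8 CPM in DMSO (log2 fold change -1.01, SE 0.15, adjusted p = 0.000866). It also passed with the library-set term (-0.74, adjusted p = 0.0336). Ppargc1b, a coactivator of oxidative metabolism, and Esrrg, an orphan nuclear receptor, fell as well (-1.22, SE 0.20, and -1.33, SE 0.24). With that term their log2 fold changes were -1.34 and -1.28. Ppargc1a, the coactivator best known for driving Pck1 and G6pc in liver, had 50.9 ± 21.9 CPM in AA and 44.3 ± 5.84 CPM in DMSO (0.13, SE 0.24, adjusted p = 0.723). By library it had 39.6, 76.2 and 37.0 CPM in AA against 51.0, 41.9 and 40.0 CPM in DMSO. AA replicate 2 was the highest library, and AA replicates 1 and 3 lay below every DMSO library.

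Foxo1, the forkhead factor that insulin restrains, did not pass (log2 fold change -0.19, SE 0.14, adjusted p = 0.304), and nor did Hnf4a, a nuclear receptor of proximal tubule identity, at 1129 ± 191 CPM in AA and 1542 ± 158 CPM in DMSO (-0.46, SE 0.18, adjusted p = 0.0752). With library medians equalised both passed as lower (-0.45 and -0.72, adjusted p = 0.0298 and 0.0226). Insr, the insulin receptor, was lower (-0.60, SE 0.13, adjusted p = 0.00535) and Akt1, a kinase of insulin signalling, was higher (0.65, SE 0.13, adjusted p = 0.00409). Neither passed with the library-set term (-0.49 and 0.61, adjusted p = 0.115 and 0.0676). Without AA replicate 2, 4 regulators were higher and 5 lower, without DMSO replicate 2, 6 were lower, and with library medians equalised 5 were higher and 15 lower. With the library-set term 1 was higher and 5 were lower.

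The enzymes that work against glucose synthesis at its irreversible steps were followed in 11 tested genes. Of these, 3 passed as higher, 1 as lower and 7 not at all, beside 22.3% and 8.66% of all tested genes called higher and lower. Their median was 0.38. Pklr and Pkm encode the pyruvate kinases, which use up phosphoenolpyruvate. Pklr had 65.6, 101 and 69.4 CPM in AA against 34.4, 34.7 and 32.8 CPM in DMSO (log2 fold change 1.16, SE 0.17, adjusted p = 0.000903), and Pkm 121, 231 and 138 CPM in AA against 60.3, 74.5 and 75.1 CPM in DMSO (1.16, SE 0.22, adjusted p = 0.00278). Hk1, a hexokinase, had 47.0, 110 and 48.0 CPM in AA against 25.8, 34.9 and 20.3 CPM in DMSO (1.22, SE 0.30, adjusted p = 0.0119). For all 3 genes AA replicate 2 was the highest library, which also had the highest sum of 7 markers of the thick ascending limb, a later tubule segment (1562 CPM, where AA replicates 1 and 3 had 419 and 873 CPM, and 657, 715 and 312 CPM in the DMSO libraries). All 3 calls held without AA replicate 2, with library medians equalised and under the library-set term. Pfkp, a phosphofructokinase, was lower (-0.64, SE 0.16, adjusted p = 0.0113), a call lost without AA replicate 3 (adjusted p = 0.0507).

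Pck2 is known as a target of ATF4, the transcription factor of the integrated stress response, so the response was followed in 18 of its genes. Of these, 5 passed as higher, 4 as lower and 9 not at all, beside 22.3% and 8.66% of all tested genes called higher and lower. Their median was 0.43. Atf4 had 97.5 ± 20.8 CPM in AA and 42.2 ± 7.83 CPM in DMSO (log2 fold change 1.18, SE 0.19, adjusted p = 0.00114). Sesn2, which restrains growth signalling, and Ddit3, the stress factor CHOP, were higher (1.36, SE 0.18, and 1.66, SE 0.25). Slc3a2, given above with glutamine handling, was the call of this list with the smallest adjusted p (2.09, SE 0.15). Slc3a2 is counted in the glutamine list too, and Atf4 in that of the regulators, so the counts of the lists are not separate. Shmt2 and Phgdh, enzymes of serine and one-carbon metabolism, were lower (-0.74, SE 0.14, and -1.38, SE 0.32). The calls went both ways, Pck2 itself was not called, and without AA replicate 2, 2 genes were lower. With the library-set term 5 were higher and 3 lower, and the median of the list was -0.48. The median was also negative, at -0.057, without DMSO replicate 2, and 0.70 without DMSO replicate 3.

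**Figure D4:**
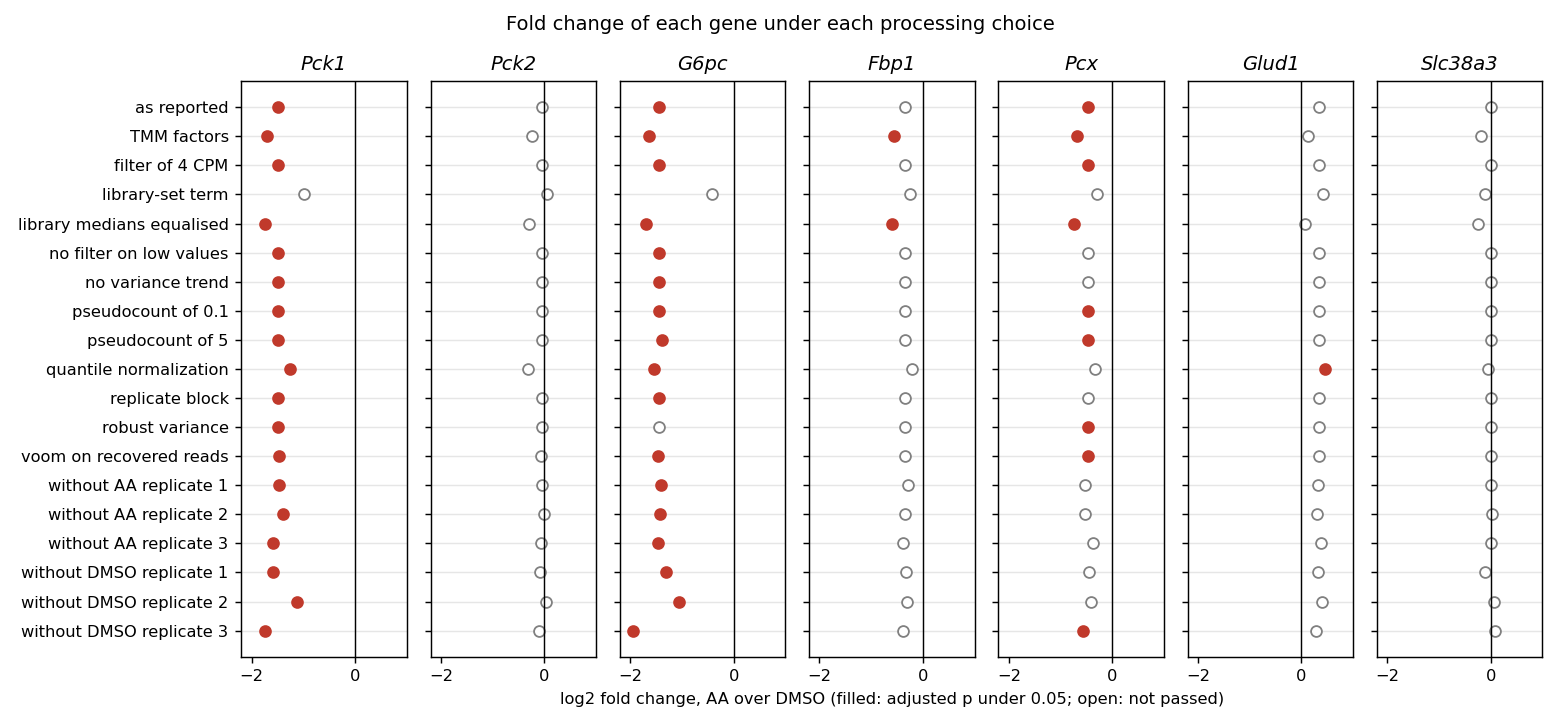
Log2 fold change of AA over DMSO (x axis) of each of the 7 genes under each processing choice (y axis); filled points passed at an adjusted p of 0.05 and open points did not. Pck1 passed under every choice shown but the library-set term, G6pc under every choice but that term and the robust variance, and Pcx lost its call under 10 choices.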

How the data were processed

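Per the labels' protocols, PicoPure RNA was turned into TruSeq Stranded mRNA libraries. Per the submitters' processing notes, bcl2fastq 2.19 and kallisto were used, on build mm10. The sources used here give neither the role of kallisto nor the strand setting. The authors deposited log10(CPM + 1) values for 32544 genes, as the values show: 100% of them are whole reads within 0.1 read once the log is undone. Genes at or above 1 CPM in 3 or more libraries were kept. Tests were two-sided and used log2(CPM + 1) in limma 3.58.1 (R 4.3.3) with a variance trend. Adjusted p-values are those of Benjamini and Hochberg over 14311 genes, and a call is one under 0.05. Fold changes on this scale understate changes of low genes. The code was tested on simulated data. The library-set term keeps DMSO replicates 1 and 2 apart, so that AA is set against DMSO replicate 3 alone. Other scalings, filters, pseudocounts and variance models and leaving out each library were alternatives.

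The 7 genes and all lists were chosen with earlier results of these data known. Beyond the 7, the text names called genes of each list with the smallest adjusted p, a fixed set of pathway genes and the 2 nearest profiles of each. A few genes that this rule names are not reported here. Positions and lengths are from GENCODE M21 and upstream windows from RefSeq (GRCm38.p6).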

Additional observations from a re-analysis of the deposited data

How the results depend on the processing

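The count of all called genes, 4426, was 1481 with the library-set term and 2645 to 3980 with 1 library left out, the lowest without AA replicate 2. The count of the 7 genes called lower, 3, was 0 with the library-set term and 2 to 3 with 1 library left out. The count called higher, 0, was 1 after quantile normalization and 0 in every other run. With the library-set term the log2 fold changes were -0.98 for Pck1 (adjusted p = 0.0846), -0.42 for G6pc (0.238), -0.29 for Pcx (0.406), 0.051 for Pck2 and -0.12 for Slc38a3. For G6pc the robust variance gave -1.43 (0.0765). Fbp1 passed with library medians equalised (-0.60) and TMM factors (-0.55), and Glud1 after quantile normalization (0.45, adjusted p = 0.0321). Pcx did not pass without a filter (-0.47, 0.0777), without a variance trend (-0.47, 0.0713) or after quantile normalization (-0.34, 0.115). Slc38a3 turned to -0.25 with library medians equalised, -0.20 with TMM factors and -0.056 after quantile normalization. With 1 library left out, the fold changes ranged from -1.74 to -1.13 for Pck1, -1.94 to -1.06 for G6pc, -0.56 to -0.37 for Pcx, -0.095 to 0.04 for Pck2 (0.04 without DMSO replicate 2) and -0.11 to 0.078 for Slc38a3 (-0.11 without DMSO replicate 1). Except by construction, as where fewer libraries remain, the cause was not tested.

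Libraries that share a replicate number did not deviate together (correlations of deviations from the group means -0.109, -0.156 and -0.015 for numbers 1, 2 and 3). Libraries with different numbers had correlations of -0.074 to 0.194. This check cannot tell whether the numbers pair samples, and the labels name no animal for a library. With the replicate block 3813 genes were called and Pcx was not (-0.47, adjusted p = 0.0672). Voom on recovered reads, chosen after seeing the data, called 4366 genes and 3 of the 7 as lower. Results of edgeR and DESeq2, listed as alternatives, are not reported here.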
